A study of Homo sapiens with 18 samples.

Results

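The human genome holds a pair of imprinted regions in which long arrays of C/D box small nucleolar RNAs (snoRNAs) lie in the introns of long noncoding transcripts. The SNORD113 and SNORD114 families lie on chromosome 14 in the DLK1-DIO3 region, and the SNORD116 and SNORD115 families lie on chromosome 15 in the Prader-Willi region. Their counts are described here in small RNA sequencing of HEK293T cells, a human embryonic kidney line. Members were the rows of the count table whose name began with SNORD113, SNORD114, SNORD115 or SNORD116 and that were at most 500 nt long. These were 134 of 175935 rows, with 40 on chromosome 14 and 94 on chromosome 15. Some chromosome 15 rows overlap each other, so that the 94 rows cover 78 places in the genome.

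The cells had been transfected for 48 h with si-scramble (control) or with si-SSB (siSSB), an siRNA against SSB. SSB encodes La, a protein that binds the 3′ ends of new RNA polymerase III transcripts. RNA was taken from whole cells (total), the nuclear fraction (nuc) or the cytoplasmic fraction (cyto). With 3 libraries in each of 6 groups there were 18 libraries, and the labels mark all of them as Plus_PNK. No other treatment or allele is labelled, and all groups were of 1 cell line. The SSB messenger RNA and marker genes of the cell line were not analysed here, since the rows used are noncoding RNA features. The depletion of SSB was therefore not checked in these libraries. The purity of the fractions was not checked either.

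A C/D box snoRNA is held by a small set of core proteins that bind its box C and box D motifs, and most such RNAs guide ribose methylation of ribosomal or spliceosomal RNA. Members of the 4 imprinted families are mostly orphans, with no established ribosomal target. In this they differ from housekeeping snoRNAs such as SNORD44. SNORD113 and SNORD114 are released from introns of the maternally expressed MEG8 transcript. SNORD116 and SNORD115 are released from introns of SNHG14, the paternally expressed continuation of the SNURF-SNRPN transcript, and loss of the SNORD116 genes is associated with Prader-Willi syndrome. The chromosome 15 array is best known for its expression in neurons.

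The members that carried the few counts have the following sequences, read from the hg38 genome at the GENCODE v44 snoRNA genes, all on the plus strand. Capitals mark the box C letters TGATGA and, near the 3′ end, the box D letters CTGA. SNORD114-3 is shown because it held most of the counts, and SNORD114-17 because it is the closest relative of SNORD114-3 by sequence, a choice made after the values were seen. SNORD114-22, SNORD114-23 and SNORD113-5 represent the other counted member rows of chromosome 14, and SNORD115-4 and SNORD116-25 are the only counted members on chromosome 15.
SNORD114-3, chr14:100953349-100953423: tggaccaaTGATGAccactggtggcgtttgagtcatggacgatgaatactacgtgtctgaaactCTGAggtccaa
SNORD114-17, chr14:100974806-100974880: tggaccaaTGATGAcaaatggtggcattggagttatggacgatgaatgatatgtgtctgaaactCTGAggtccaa
SNORD114-22, chr14:100982926-100982997: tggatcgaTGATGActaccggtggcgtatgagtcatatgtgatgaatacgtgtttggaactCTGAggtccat
SNORD114-23, chr14:100983876-100983947: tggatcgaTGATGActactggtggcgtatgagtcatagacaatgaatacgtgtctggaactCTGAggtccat
SNORD113-5, chr14:100938187-100938264: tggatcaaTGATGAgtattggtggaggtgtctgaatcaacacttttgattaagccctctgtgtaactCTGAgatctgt
SNORD115-4, chr15:25176832-25176913: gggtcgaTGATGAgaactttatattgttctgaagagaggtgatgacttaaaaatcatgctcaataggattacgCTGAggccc
SNORD116-25, chr15:25097663-25097754: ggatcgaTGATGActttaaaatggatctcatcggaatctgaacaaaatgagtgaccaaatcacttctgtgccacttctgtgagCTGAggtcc

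The box letters were common to the families. TGATGA was found in 102 of 118 member places (86.4%) and in 154 of 245 other C/D box snoRNAs (62.9%), read on the strand of the snoRNA. CTGA was found in the last 20 nt of 114 member places (96.6%) and of 226 other C/D box snoRNAs (92.2%). Within a family the members were alike, with a median pairwise identity of 78.1% for SNORD113, 76.4% for SNORD114, 92.7% for SNORD115 and 83.5% for SNORD116. SNORD114-3 and SNORD114-17 were 89.3% identical, and the closest snoRNA outside the 4 families was SNORD112, at 66.7%.

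Both clusters were close to empty in these libraries. Over all 18 libraries, 10 of 134 member rows held any count and 124 rows were at 0. On chromosome 14, 7 of 40 rows (17.5%) had a count, with 70 counts in all. On chromosome 15, 3 of 94 rows (3.19%) had a count, and 2 of these are overlapping rows of SNORD116-25 with the same single read count. Taken once, the chromosome 15 cluster held 3 counts. Only SNORD114-3, with 57 counts, reached 10 counts over the 18 libraries. Leaving out 1 library left 8 to 10 rows with a count: 8 without replicate 1 or replicate 3 of siSSB total, 9 without replicate 1 of control nuc and 10 without any of the other libraries.

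The other C/D box snoRNAs of at most 500 nt show what the same libraries held of this RNA class. Of their 245 rows, 226 (92.2%) had a count, 181 (73.9%) had at least 100 counts, and the median row had 7516 counts over all libraries. SNORD44, a snoRNA processed from introns of GAS5, had the most, with 12460287 counts. In a single library, 188 to 202 of these rows had a count, cytoplasmic libraries included. A library held 208361 to 6216166 counts of other C/D box snoRNAs, which was 0.873% to 4.03% of its column sum. Column sums ran from 21565995 to 158244813, with overlapping rows counted more than once. A floor of 3 counts, the upper limit that a count of 0 allows, was therefore 4.83e-05% to 0.00144% of the C/D box snoRNA counts, or 0.019 to 0.139 CPM, the count scaled to the column sum. The floors were higher in the cytoplasmic libraries, the shallowest for this class, and a value of 0 there limits a member less than a value of 0 in a nuclear library. Fewer cells with an RNA and less of it in each cell cannot be told apart in such bulk libraries.

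**Figure D1:**
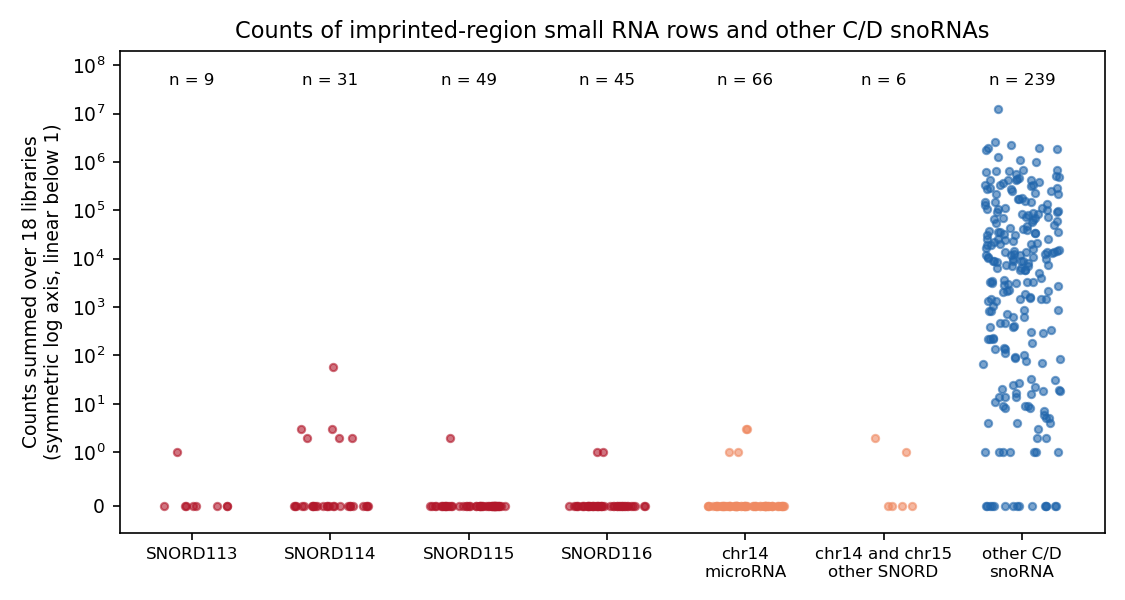
Counts summed over the 18 libraries (symmetric log axis, linear below 1) for each row of the 4 imprinted families, the microRNA rows of the chromosome 14 region, the other SNORD rows of both regions and the remaining C/D box snoRNAs; each point is 1 row and n is the number of rows. Member rows lie at 0 or at 1 to 3 counts except SNORD114-3 at 57, while the other C/D box snoRNAs reach 12460287.

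The counts were not spread along the arrays. SNORD113, the proximal family of chromosome 14, had 1 count in 1 of its 9 rows. SNORD114 had 69 counts in 6 of its 31 rows. SNORD116 had 1 count at 1 of its 30 places and SNORD115 had 2 counts at 1 of its 48 places. Neighbouring members come from introns of 1 transcript, so that their rows are not independent measurements of separate genes.

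**Figure D2:**
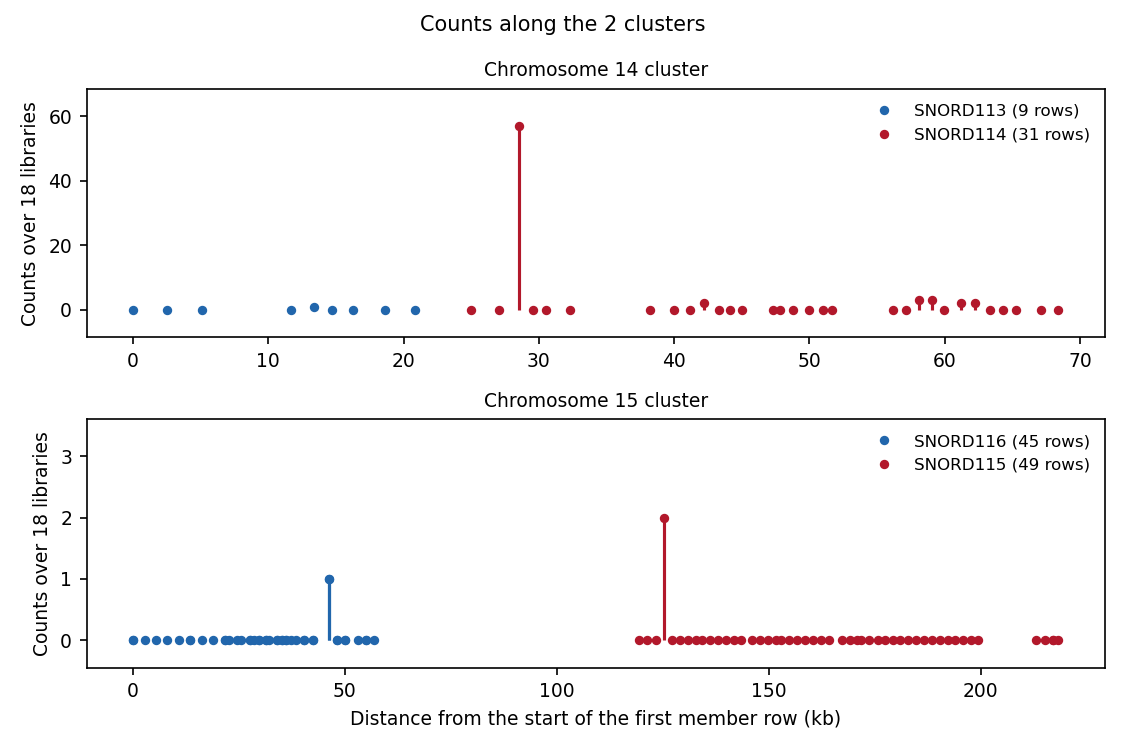
Counts over the 18 libraries of each member row against the distance of its start from the start of the first member row (kb), for the chromosome 14 cluster above and the chromosome 15 cluster below, coloured by family. A single row, SNORD114-3, stands above 3 counts on chromosome 14, and on chromosome 15 no row is above 2.

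Most raw counts of SNORD114-3 came from the nuclear libraries, which also had the largest column sums. As a share of C/D box snoRNA counts it was at 0.000156% ± 2.22e-05 in control nuc and 0.000183% ± 0.00019 in control cyto (SD, n = 3 each). In control nuc its raw counts in replicates 1, 2 and 3 were 9, 9 and 6, and in siSSB nuc they were 9, 3 and 10. In control total they were 4, 2 and 2, and in siSSB total 0, 1 and 0. In control cyto they were 1, 0 and 1, and in siSSB cyto all 3 libraries were at 0. The ranges of the raw counts of the nuclear libraries overlapped between control and siSSB. Those of the total libraries did not, with every control library above every siSSB library.

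Per length SNORD114-3 was far below the middle of its class. Its level in control nuc was 0.472 ± 0.0587 CPM per kb of row (SD, n = 3) and in siSSB nuc 0.517 ± 0.247 CPM per kb (SD, n = 3). In control total the level was 0.272 ± 0.0737 CPM per kb and in siSSB total 0.056 ± 0.0969 CPM per kb, each with n = 3. In control cyto it was 0.165 ± 0.158 CPM per kb (SD, n = 3). The median of the other C/D box snoRNAs on this scale was 15.4 to 43.9 CPM per kb in a library. In the control nuc libraries, 174 to 177 of the 245 other C/D box snoRNAs had a higher level than SNORD114-3. In order of the mean level the groups ran siSSB nuc, control nuc, control total, control cyto, siSSB total, siSSB cyto, and the ranges of each pair of neighbours overlapped except those of control nuc and control total. The libraries of siSSB nuc, at 0.243 to 0.722 CPM per kb, also overlapped those of control total (0.229 to 0.357) and control cyto (0 to 0.315).

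The other 6 counted rows of chromosome 14 held 13 counts together. SNORD114-22 had 2 counts in siSSB total replicate 1 and 1 in siSSB nuc replicate 3. SNORD114-23 had 1 count in control nuc replicate 1 and 2 in control nuc replicate 3. SNORD114-10 had 1 count each in siSSB total replicates 1 and 2. SNORD114-25 had 2 counts in siSSB total replicate 3, and SNORD114-26 had 1 count each in control nuc replicate 3 and siSSB total replicate 2. SNORD113-5 had 1 count, in siSSB total replicate 3. On chromosome 15, SNORD115-4 had 2 counts in control nuc replicate 1 and SNORD116-25 had 1 count in siSSB total replicate 1. No cytoplasmic library held a count of any member besides SNORD114-3. Each of these rows was below the floor of 3 counts or at it, so no group can be ordered by a single one of them.

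**Figure D3:**
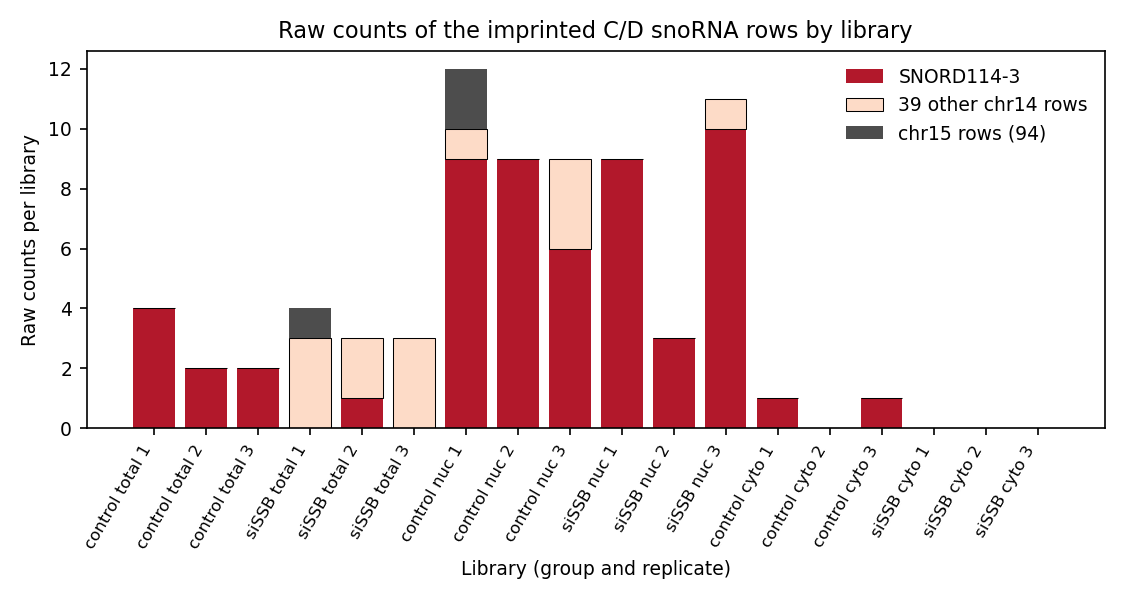
Raw counts of SNORD114-3, the 39 other chromosome 14 rows and the 94 chromosome 15 rows (overlapping rows of equal counts taken once) in each library, stacked, with libraries on the x axis by group and replicate. Nuclear libraries hold 3 to 12 counts, total libraries 2 to 4 and cytoplasmic libraries 0 or 1.

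The chromosome 14 cluster as a whole was at 10, 9 and 9 counts in control nuc and at 9, 3 and 11 in siSSB nuc. It was at 4, 2 and 2 counts in control total and at 3 in each siSSB total library. As a share of C/D box snoRNA counts this was 0.000185% ± 2.63e-05 in control nuc, 0.00017% ± 8.5e-05 in siSSB nuc, 9.34e-05% ± 2.01e-05 in control total and 0.000165% ± 4.82e-05 in siSSB total (SD, n = 3 each). Control cyto, with 2 counts, stood at 0.000183% ± 0.00019 (SD, n = 3). The cluster had 0 counts in all siSSB cyto libraries, which allows a share of up to 0.00101% to 0.00135% per library. The floor in siSSB cyto thus lay above the mean share of every other group.

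The first question was whether SSB knockdown altered the members in total RNA. SNORD114-3 had 8 counts in control total and 1 in siSSB total, and the 39 other chromosome 14 rows had 0 counts in control total and 8 in siSSB total (3, 2 and 3 in the replicates). The cluster sum of 8 against 9 counts does not show on which members these counts lay. Its ratio of siSSB to control was 1.02 with TMM-scaled libraries (95% exact counting interval 0.349 to 3.04). Scaled to column sums it was 1.48 (0.508 to 4.4), and scaled to C/D box snoRNA counts 1.62 (0.555 to 4.83). All of these intervals include no difference, and only with the last scaling did the ranges of the sum not overlap. The ratio of siSSB to control for SNORD114-3 was 0.113 (95% exact counting interval 0.00255 to 0.845) with TMM-scaled libraries, and its ranges did not overlap. An exact two-sided permutation test of the TMM-scaled values gave p = 0.1, the smallest that 3 libraries against 3 allow. It could not have given a p under 0.05 and so decides nothing here. SNORD114-3 was itself singled out for its counts in these same libraries, and its interval covers counting error only. Scaled to column sums the ratio was 0.165 (0.00371 to 1.23), and scaled to C/D box snoRNA counts 0.18 (0.00406 to 1.34). With those scalings the interval includes no difference. The other 39 rows were split from SNORD114-3 after the values were seen, and the split was not tested. No fold or limit is therefore given for them. Their counted rows held 1 or 2 counts each in a siSSB total library.

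In the test across all features, by the edgeR quasi-likelihood method, no member passed the filter on low counts for the knockdown in total RNA. Accordingly 0 of 134 rows were called and 0 had an unadjusted p under 0.05, beside 186 of 13883 features tested (1.34%) that were called at an adjusted p under 0.05. DESeq2 on the same rows also tested 0 members. Without the filter, 8 members entered the fit and none was called, with 1 at an unadjusted p under 0.05. SNORD114-3 then had a log2 fold change of -2.80 ± 1.36 (SE, edgeR adjusted p = 0.749). Of the other C/D box snoRNAs, 174 were tested, 0 rose and 1 fell, with a median log2 fold change of -0.63 beside -0.01 over all features. DESeq2 called 19 of the same 174 lower, beside 268 features higher and 298 lower of 13883. Without the filter edgeR called 24 of 219 lower, beside 190 features higher and 436 lower of 114675. The class median was -0.10 with column sums, beside 0.55 over all features, and 0.04 scaled to the other C/D box snoRNAs, beside 0.72.

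Within the nuclear fraction SNORD114-3 was close to even between control and siSSB, at 24 and 22 counts. The ratio of siSSB to control was 0.88 (95% exact counting interval 0.47 to 1.64) with TMM scaling, 1.12 (0.598 to 2.08) by column sums and 1.08 (0.575 to 2.002) by C/D box snoRNA counts. The exact two-sided permutation p was 0.9, 0.8 and 0.9 in the same order. Changes within these intervals are thus not excluded at this depth, and the intervals cover counting error only, not the spread between libraries. The 39 other chromosome 14 rows had 4 counts in control nuc and 1 in siSSB nuc. No member passed the filter, so that 0 were called beside 26 of 6873 features (0.378%). Without the filter 5 members were tested by edgeR, with 0 called and 0 at an unadjusted p under 0.05, and SNORD114-3 had a log2 fold change of -0.31 ± 0.56 (SE, adjusted p = 0.851). Among the other C/D box snoRNAs 0 rose and 1 fell of 177 tested, with a median of -0.12 beside 0.08 over all features.

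In the cytoplasmic fraction SNORD114-3 had 2 counts in control and 0 in siSSB, both under the floor, and no fold is given. The other 133 rows had 0 counts in these 6 libraries. No member passed the filter, with 0 called beside 55 of 18921 features (0.291%). Without it SNORD114-3 alone was tested, and edgeR gave an adjusted p of 0.834. Of 167 other C/D box snoRNAs tested, 0 were called, with a median log2 fold change of -0.30 beside 0.01 over all features.

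The second question was where in the cell the members lay. In control cells SNORD114-3 had 24 counts in nuc and 2 in cyto, and in siSSB cells 22 and 0. The nuclear libraries also held more counts in all and more C/D box snoRNA counts, and the size and the direction of the ratio depended on the scaling. The nuclear to cytoplasmic ratio in control cells was 47.3 (95% exact counting interval 11.7 to 413) with TMM scaling, 2.71 (0.673 to 23.7) by column sums and 0.827 (0.205 to 7.22) relative to C/D box snoRNA counts. In siSSB cells, with the cytoplasmic group at the floor of 3 counts over the group, SNORD114-3 was at least 25.6-fold higher in nuc by TMM scaling and at least 1.78-fold higher by column sums. The exact 95% lower limits, which include the counting error of the 22 counts, were 19.1 and 1.33. Relative to C/D box snoRNA counts the cytoplasmic floor lay above the nuclear share, and no direction is given.

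The rest of the class moved with the scaling in the same way. With TMM factors 169 of 175 other C/D box snoRNAs were higher in nuc and 4 lower in control cells, with a median log2 difference of 5.40 beside -0.27 over all features. With column sums 107 were higher and 31 lower, at a median of 1.28 beside -4.33 over all features. In siSSB cells the split was 169 higher and 3 lower of 174 with TMM factors, and 116 higher and 23 lower with column sums. Scaled to the class's own counts, 39 were higher and 75 lower in control cells, at a median of -0.48 beside -6.10 over all features. In siSSB cells 40 were higher and 77 lower, at a median of -0.44 beside -5.99. With TMM factors the background was 6242 of 26774 features called in control cells (23.3%) and 6650 of 26274 in siSSB cells (25.3%). Column sums gave 665 features higher and 25770 lower in control cells, and 664 and 25211 in siSSB cells. Scaling to the class gave 206 features higher and 26108 lower in control cells, and 185 and 25648 in siSSB cells. No member passed the filter in either kind of cell, so that 0 were called and 0 had an unadjusted p under 0.05.

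Without the filter on low counts SNORD114-3 was called higher in nuc by edgeR. The log2 difference was 4.74 ± 0.81 in control cells (SE, adjusted p = 1.9e-07) and 6.82 ± 1.09 in siSSB cells (SE, adjusted p = 1.82e-08), with TMM factors. With column sums it was 1.38 ± 1.12 (adjusted p = 0.241) and 5.21 ± 2.07 (adjusted p = 0.0228), and scaled to the other C/D box snoRNAs it was -0.27 ± 1.36 (adjusted p = 0.845) and 4.98 ± 3.68 (adjusted p = 0.196). In siSSB cells the fitted size rests on a cytoplasmic group at 0 and is no bound. The call in control cells was thus lost under both other scalings and turned in sign under one. Over all features, the unfiltered fits with TMM factors called 1927 higher and 4536 lower of 116129 in control cells. In siSSB cells they called 2026 higher and 4303 lower of 118354. With column sums the calls were 664 higher and 68487 lower in control cells, and 670 and 69634 in siSSB cells.

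Whether the knockdown acted differently in the nuclear and cytoplasmic fractions could not be tested for members at the filter, with 0 tested and 0 called beside 5 of 37493 features (0.0133%). Without the filter 5 members were tested by edgeR and 0 had an unadjusted p under 0.05, and SNORD114-3 had an interaction of 1.94 ± 1.37 on the log2 scale (SE, adjusted p = 1.00).

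The other small RNAs of both regions were as scarce as the members. A list of 200 rows from both regions was examined, of which 99 had a count. On chromosome 14 the microRNA rows are processed from the same maternally expressed transcription unit, and 4 of 66 had a count, with 8 counts in all. MIR381 and MIR543 had 3 counts each, and MIR379 and MIR370 had 1 each. SNORD112, a lone C/D box snoRNA of the region, was at 0. On chromosome 15, outside the 2 arrays, SNORD107 had 2 counts and SNORD64 had 1, while SNORD108 and both rows of SNORD109A were at 0. IPW and PWAR1, which lie between the SNORD116 and SNORD115 arrays, were at 0, as was PWAR4, a row of 392 nt within the SNORD115 array. Ahead of the SNORD116 array PWAR6 was at 0, PWAR5 had 1 count and PWARSN had 8.

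The host transcripts had more counts, but few outside the snoRNAs on chromosome 14. The longest MEG8 row, chr14:100889624-100999138, held 113 counts, and the member counts within it came to 61.9% of these, from 4.5% of its length. In control nuc it had 30 counts beside 28 in members, and in siSSB nuc 27 beside 23. In control cyto the same row had 13 counts beside 2, and in siSSB cyto 19 beside 0. The nuclear counts of the MEG8 row thus lay mostly within SNORD113 and SNORD114 rows and the cytoplasmic counts mostly outside them. MEG3, the neighbouring maternally expressed long RNA, had at most 35 counts in any of its 31 rows.

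On chromosome 15 the host row had counts that did not come from the arrays. The longest SNHG14 row, chr15:24823583-25419486, held 785 counts, of which the members made up 0.382%. This row also spans the SNRPN gene on the same strand, chr15:24823637-24978723. The counts of the row can therefore not be assigned to SNHG14 alone. In control cyto the row had 59, 68 and 88 counts in the replicates with 0 in members, and in control nuc 15, 19 and 14 with 2 in members. Most of these counts lay past the arrays: a second SNHG14 row, chr15:25269662-25419487, held 482 counts (61.4% as many), and 57.2% of its length overlaps UBE3A, a protein-coding gene on the opposite strand. The strand setting of the counting is not given in the sources used here, so reads there cannot be assigned to SNHG14 or UBE3A. In a window of chromosome 15 that began ahead of the first member and ended past the last, 135 other rows over 500 nt held at most 41 counts each.

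Of the 200 rows, 3, 2 and 3 passed the filter for the knockdown in total, nuc and cyto, 4 and 5 for nuc against cyto in control and siSSB cells, and 9 for the difference between fractions. None was called with TMM factors and the filter on each comparison's own libraries. With all 18 libraries in 1 fit, 1 of 9 rows was called higher in nuc in control cells and 1 of 9 in siSSB cells. Of all 37883 features in that fit, 2399 were higher and 3934 lower in control cells, and 2735 and 4136 in siSSB cells. Without the filter, 5 of 60 rows were called higher in nuc in control cells and 5 of 65 in siSSB cells, and none lower. Over all features the unfiltered fits called 1927 higher and 4536 lower of 116129 in control cells. In siSSB cells they called 2026 higher and 4303 lower of 118354. Leaving out replicate 3 of control cyto gave 1 row called higher in nuc, as did leaving out any 1 of the siSSB cyto libraries. Without replicate 2 of siSSB cyto 1 row was also called lower. Over all features the fit without replicate 3 of control cyto called 2420 of 27150 higher. Without replicates 1, 2 and 3 of siSSB cyto, 2188 of 29155, 2545 of 31424 and 2709 of 31668 were higher. The fit without replicate 2 of siSSB cyto called 3794 lower. The longest SNHG14 row, which also spans SNRPN, had a log2 fold change of 0.51 ± 0.28 on knockdown in total RNA (SE, edgeR adjusted p = 0.422). In the nuclear fraction it was 0.01 ± 0.38 with an adjusted p of 0.992, and in the cytoplasmic fraction 0.20 ± 0.22 with an adjusted p of 0.919. With column sums all 4 rows tested in control cells and all 5 in siSSB cells were called lower in nuc. These were SNHG14 or PWRN4 rows. So were 25770 of all 26774 features tested in control cells and 25211 of 26274 in siSSB cells called lower. The place of the listed rows thus turned on the scaling and was not particular to them.

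A count can miss a snoRNA whose sequence occurs more than once in the genome, if the mapping drops reads with several positions. How such reads were treated is not given in the sources used here. For each snoRNA, all 30-nt windows were therefore looked up on both strands of the hg38 chromosomes. All 40 SNORD113 and SNORD114 places had at least 10 windows found nowhere else, as had 30 of 48 SNORD115 and 24 of 30 SNORD116 places. Of these 94 member places, 85 were at 0 and 9 had a count. Of 232 other C/D box snoRNAs with as many such windows, 217 had a count. SNORD114-3 itself was unique in 46 of 46 windows, as was SNORD114-17, which had 0 counts.

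At the other end 17 member places, 11 of SNORD115 and 6 of SNORD116, had no window found once, and all were at 0. Among the other C/D box snoRNAs 13 had no such window, and 9 of these had counts, 8 of them at least 100. SNORD3A, the U3 snoRNA, is among them, with 40195 counts. Further, 15 member places share their whole sequence with another place and were at 0, while 6 of 10 such other C/D box snoRNAs had counts, of up to 3248. The windows cover the snoRNA alone and not the flanks of its row, so that a row without a unique window may still hold unique sequence. The part of the read treatment in the counts of 0 was not tested.

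**Figure D4:**
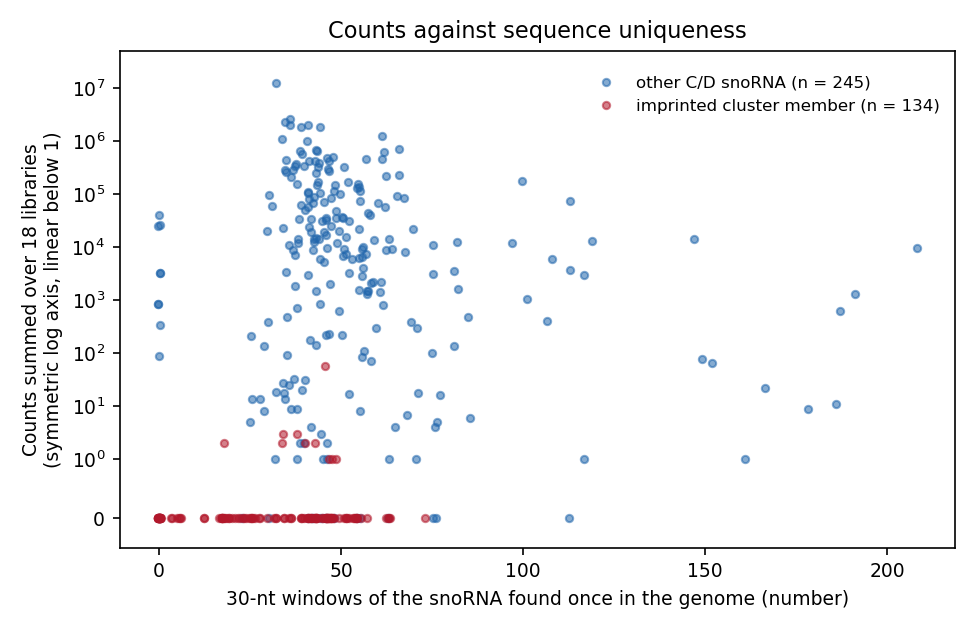
Counts over the 18 libraries (symmetric log axis, linear below 1) against the number of 30-nt windows of each snoRNA that occur once in the genome, for the 134 member rows and the 245 other C/D box snoRNA rows; each point is 1 row. Members with 10 or more unique windows lie at 0 to 3 counts except SNORD114-3 at 57, and several other C/D box snoRNAs without such a window lie above 100.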

How the data were processed

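Small RNA libraries of HEK293T cells (RNA extracted with the mirVana PARIS kit, libraries made with the NEBNext small RNA kit) gave 1 table, in which the authors deposited raw read counts per noncoding RNA feature, without normalization. The submitters' processing notes name Bowtie2, bedtools and hg38; versions, trimming, strand and the treatment of reads with several positions are not given in the sources used here. Of the 134 member rows, 132 hold a GENCODE v44 snoRNA gene and 112 of these span it with 25 nt on each side.

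Groups and replicates came from the sample titles. Member rows and lists were chosen with earlier results of these data known. Each comparison was fitted on its own 6 libraries (12 for the difference between fractions) with edgeR 4.0.16 in R 4.3.3, by the quasi-likelihood F-test with TMM factors and filterByExpr. The Benjamini-Hochberg adjustment covered all features tested, and called means an adjusted p under 0.05. The edgeR test with the filter was checked on simulated data for the nuclear knockdown, with changes placed in features that pass the filter. The fits without the filter, the counting intervals and the permutation tests were not checked in this way. Alternatives were other scalings, no filter on low counts, DESeq2 1.42.0, a replicate block, 1 fit of all libraries and leaving out each library. Ratios of small counts have exact conditional 95% intervals. No molecular identifiers were described, so intervals and floors cover counting error only. The study calls the replicates biological, and the labels do not say from which cultures they came. P-values measure the spread between these libraries.

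Named members were the 8 rows per cluster with the highest mean count, rows of equal counts taken once, and any called members; rows at 0 are named only as relatives or list members. Libraries were not treated as paired by replicate number. The correlation of deviations of same-numbered libraries was over 0.1 in at most 1 of 3 pairs of any comparison. With 3 libraries a group, such correlations cannot show whether same-numbered libraries came from 1 culture.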

Additional observations from a re-analysis of the deposited data

How the results depend on the processing

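The count of members called was 0 in 91 of 94 alternatives and 1 in the other 3, and in all but 16 of them no member passed the filter, so that a count of 0 there says nothing about stability. Without a filter on low counts the count was 1 for nuclear against cytoplasmic RNA in control cells and 1 in siSSB cells, and without the filter and with library size alone, an alternative added after seeing the data, it was 1 in siSSB cells. In each case the member was SNORD114-3, beside 6463 of 116129, 6329 of 118354 and 70304 of 118354 features called, in the same order. The log2 ratio of the chromosome 14 total on knockdown in total RNA moved from 0.01 to 0.82 when scaled to the other C/D box snoRNAs. For nuclear against cytoplasmic RNA in control cells it moved from 5.86 to 1.76 with library size alone and to 0.016 when scaled to the other C/D box snoRNAs. The cause of these shifts was not tested. Scaling to library size moved the median log2 difference of all features from -0.01 to 0.55 on knockdown in total RNA, from 0.08 to 0.43 in the nuclear fraction and from 0.01 to 0.21 in the cytoplasmic fraction. Leaving out each library in turn gave log2 ratios of the chromosome 14 total of -0.21 to 0.53 on knockdown in total RNA, 5.27 to 6.58 for nuclear against cytoplasmic RNA in control cells, and -0.76 to 0.12 on knockdown in the nuclear fraction, against -0.29 with all libraries. The last was positive only without replicate 2 of siSSB nuc, and it was at 0.12 there. On knockdown in total RNA the ratio was negative without either of replicates 2 and 3 of control total or of replicates 1 and 3 of siSSB total. Leaving out a library without the filter on low counts was not run. No log2 ratio is given for the chromosome 15 totals, with at most 2 counts a group, for the chromosome 14 total on knockdown in the cytoplasmic fraction, or in siSSB cells for its nuclear against cytoplasmic ratio, where a group was at 0. Alternatives planned for single members have no value to be set against, since no member passed the filter. Depth limits all members but SNORD114-3 to counts at or under the floor.

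With the replicate block, 0 members were called in any of the 6 comparisons, since none passed the filter. The block moved the calls over all features from 186 to 199 on knockdown in total RNA, from 26 to 40 in the nuclear fraction and from 55 to 4 in the cytoplasmic fraction. Correlations of same-numbered libraries ran from -0.505 to 0.167 over the 5 pairs of groups. For control nuc and control cyto they ran from 0.0343 to 0.167, beside a highest value of 0.131 among differently numbered libraries. Whether the replicate number pairs the samples cannot be settled from these values.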
